A study of Mus musculus with 12 samples.

Results

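The interaction of genotype and treatment in mouse liver was examined: for every gene, the response to tunicamycin (TM) of Atf6a-/- livers minus the response of wild-type livers. Livers of 12 mice were profiled on Affymetrix arrays, 1 array per animal and 3 animals in each of 4 groups, and all 12 arrays of the series entered the comparison. The groups were wild-type (Atf6a +/+) and Atf6a-/- mice given 150 mM dextrose as vehicle, and wild-type and Atf6a-/- mice given TM at 1 mg/kg in the same dextrose, all by injection into the peritoneum. Livers were taken 34 h after the injection by the titles and the protocol, whereas the source field of the labels reads 8 h. The mice were of mixed age and sex, neither is given per animal, and nothing in the labels ties the Atf6a-/- allele to a cell type or a time. The measure was taken on 45037 probe sets, and 18193 genes were each represented by their brightest probe set, by the mean of the 12 arrays. Values are log2 signals, and a response is a difference of 2 group means on that scale. An interaction above 0 means that the response of Atf6a-/- livers was the more positive, and one below 0 that it was the more negative. Whole liver was measured, so fewer cells of a type and less RNA per cell cannot be told apart.

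TM blocks N-linked glycosylation, so glycoproteins that enter the endoplasmic reticulum (ER) do not fold and the unfolded protein response (UPR) is set off through the sensors IRE1, PERK and ATF6. ATF6a leaves the ER upon stress, is cleaved in the Golgi, and its freed part enters the nucleus and activates genes of ER chaperones, folding enzymes and ER-associated degradation. PERK phosphorylates eIF2a, which lowers translation and raises ATF4 and CHOP. Hepatocytes secrete most plasma proteins and carry out much of lipid, bile acid, glucose, nitrogen and drug metabolism, and their ER carries a heavy load of nascent glycoproteins.

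Atf6 was checked first, as the targeted gene. Below, levels are given for animals 1, 2 and 3 of the wild-type vehicle, wild-type TM, Atf6a-/- vehicle and Atf6a-/- TM groups, in that order. Atf6 lay at 8.54, 8.42 and 8.49, at 9.30, 9.72 and 9.49, at 6.88, 6.85 and 6.60, and at 9.60, 9.81 and 9.23. The vehicle groups stood apart and the TM groups overlapped, so that the Atf6 signal rose 2.03-fold in wild-type and 6.82-fold in Atf6a-/- livers and its interaction was 1.75 ± 0.22 (SE, adjusted p = 0.00039 with limma). All 3 Atf6 probe sets were called in this direction. The call was lost on a linear scale, where the adjusted p was 0.184, against 5.8e-05 to 0.184 over the alternatives. The labels do not say which part of the gene was deleted, and what these probe sets read in Atf6a-/- livers was not tested.

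The whole-array facts that touch the interaction were few. Array 2 of the wild-type TM group stood apart from its group on the first principal component, which held 68.3% of the variance, and results that rest on it are given without it. The mean signal of the hybridisation spike-ins had an interaction of -0.17 ± 0.16 (SE), the 3' minus 5' difference of the actin control one of -0.20 ± 0.11, and the mean of Btf3 and Ppia, the reference genes of the study's PCR, one of 0.44 ± 0.17. A shift of every array by Btf3 and Ppia moved the median interaction of all probe sets from 0.0045 to -0.44, and a shift by the spike-ins moved it to 0.17. Directions of gene lists that turned under either shift are named where they are given. No wild-type TM animal had a high Xist signal, while animal 1 of every other group did. With Xist as a covariate 2446 probe sets were called higher and 2142 lower.

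The response of Atf6a-/- livers differed from that of wild-type livers in a large part of the genes measured. By limma with Benjamini-Hochberg adjustment, at an adjusted p under 0.05 and over 1.5-fold, 2594 of 18193 genes (14.3%) were called in the interaction, of which 1376 (7.56%) were higher and 1218 (6.69%) lower. On all probe sets the counts were 4565 of 45037 (10.1%), 2532 (5.62%) and 2033 (4.51%). By the same rule 1330 genes (7.31%) responded to TM in wild-type livers, 628 rising (3.45%) and 702 falling (3.86%). In Atf6a-/- livers 5102 genes (28.0%) responded, 2765 rising (15.2%) and 2337 falling (12.8%). After vehicle Atf6 alone differed between genotypes (1 gene, 0.0055%), and 3586 genes (19.7%) differed after TM, 2048 higher (11.3%) and 1538 lower (8.45%). In probe sets the shares were 5.22% (2.62% rising, 2.61% falling) for the wild-type response, 21.0% (11.9%, 9.18%) for the Atf6a-/- response, 0.00222% after vehicle and 14.3% (8.49% higher, 5.85% lower) after TM. The vehicle count was 0 without animal 2 or 3 of the Atf6a-/- vehicle group or animal 1 or 2 of the wild-type vehicle group, 4 without Atf6a-/- vehicle animal 1 and 3 without wild-type vehicle animal 3. The responses of the 3 TM animals of either genotype did not overlap in any of the 2594 called genes, which the choice of these genes favours, and in 41.9% of all genes. Without wild-type TM animal 2 the called genes numbered 2014 higher and 1475 lower, and without wild-type TM animal 3 they numbered 891 and 937.

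**Figure D1:**
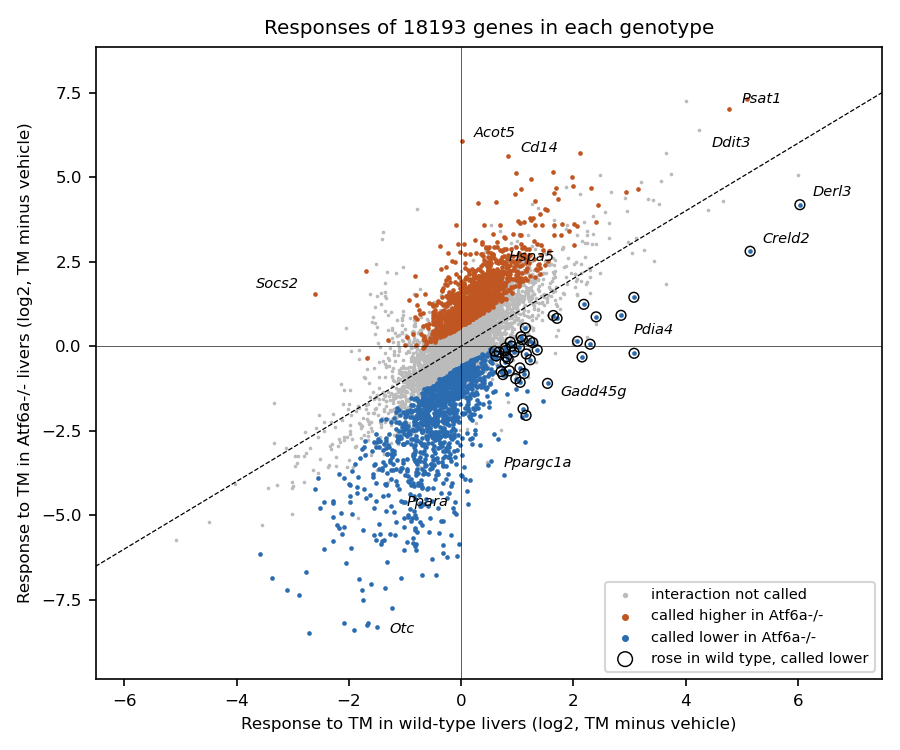
Each point is 1 of 18193 genes, with its TM response in wild-type livers on the x axis and in Atf6a-/- livers on the y axis (log2 differences of group means, 3 animals per group). Orange points are the 1376 genes called higher and blue points the 1218 called lower in the interaction, and rings mark the 42 genes that rose in wild-type livers and had a called negative interaction. Most coloured points lie off the horizontal axis near a wild-type response of 0.

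The interaction arose mainly among genes that moved little in wild-type livers. Of the 1376 genes called higher, 1109 (80.6%) rose in Atf6a-/- livers alone, with median responses of 0.18 in wild-type and 1.25 in Atf6a-/- livers, while 168 (12.2%) rose in both genotypes. Of the 1218 called lower, 856 (70.3%) fell in Atf6a-/- livers alone, with median responses of -0.24 and -1.62, and 272 (22.3%) fell in both. The wild-type response was the larger in size in 93 of the called genes (3.59%). The difference between genotypes after vehicle exceeded 1.5-fold in 20 of them (0.771%), and the median size of that difference was 0.096 against a median interaction of 1.22. Falls reached further than rises, with 76 genes lower and 4 higher by over 16-fold. Over the genes called higher, the median response of wild-type TM animals 1, 2 and 3 was 0.11, 0.40 and 0.06 and that of Atf6a-/- animals 1.25, 1.35 and 1.31. Over those called lower the values were -0.18, -0.59 and -0.21 against -1.80, -1.76 and -1.82. Animal 2 was therefore the wild-type animal nearest to the Atf6a-/- animals in both sets, and the 6 animals keep the order of their genotypes, which the choice of the genes fixes.

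A small set of genes ran the other way: they rose in wild-type livers and less, or not at all, in Atf6a-/- livers. Of the 628 genes that rose in wild-type livers, 42 (6.69%) were called lower in the interaction, 168 (26.8%) higher and 418 neither. The share called lower was that of all genes. The 42 had a median response of 1.11 in wild-type and -0.14 in Atf6a-/- livers. In Atf6a-/- livers 8 of them rose, 9 fell and 25 were not called. Alternatives for these genes were added after seeing the data. The count of 42 ranged from 28 without wild-type vehicle animal 2 to 73 without wild-type TM animal 2, of which 39 were shared, and it was 68 under the Btf3 and Ppia shift, 72 under the spike-in shift, 67 with array weights and 20 without moderation of the variance. The call of 17 of the 42 held under each of the 24 alternatives run for them. These did not include a 2-fold limit or the mean of a gene's probe sets.

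Among the 42 were genes of ER protein folding. Creld2, a secreted and ER-resident protein with disulfide isomerase activity, lay at 8.26, 8.52 and 8.37, at 13.36, 14.06 and 13.16, at 8.12, 8.54 and 8.21, and at 10.97, 11.56 and 10.76. Its rise was 35.5-fold in wild-type and 6.99-fold in Atf6a-/- livers (interaction -2.34 ± 0.34, adjusted p = 0.00107). The vehicle groups overlapped, and all 3 Atf6a-/- TM livers lay between the vehicle livers and the wild-type TM livers. Pdia4, a disulfide isomerase of the ER, lay at 9.35, 9.26 and 9.28, at 11.98, 12.56 and 11.90, at 9.35, 9.24 and 9.23, and at 10.17, 10.32 and 10.07. Here the rise was 7.20-fold against 1.88-fold (interaction -1.94 ± 0.21, adjusted p = 0.000186), again with Atf6a-/- TM livers between the other groups. Dnajb11, a cochaperone of BiP, lay at 9.14, 9.40 and 9.44, at 11.92, 11.81 and 11.47, at 9.27, 9.41 and 9.26, and at 9.82, 10.24 and 10.48. It rose 5.30-fold in wild-type and 1.82-fold in Atf6a-/- livers (interaction -1.54 ± 0.23, adjusted p = 0.00151). Derl3, a channel component of ER-associated degradation, lay at 6.62, 6.70 and 6.21, at 12.80, 12.45 and 12.40, at 7.49, 6.26 and 6.19, and at 10.90, 10.69 and 10.90. Although its rise was 65.7-fold in wild-type livers, it was still 18.2-fold in Atf6a-/- livers (interaction -1.85 ± 0.40, adjusted p = 0.0115, or 0.0588 without moderation, with 0.000472 to 0.0588 over the alternatives).

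**Figure D2:**
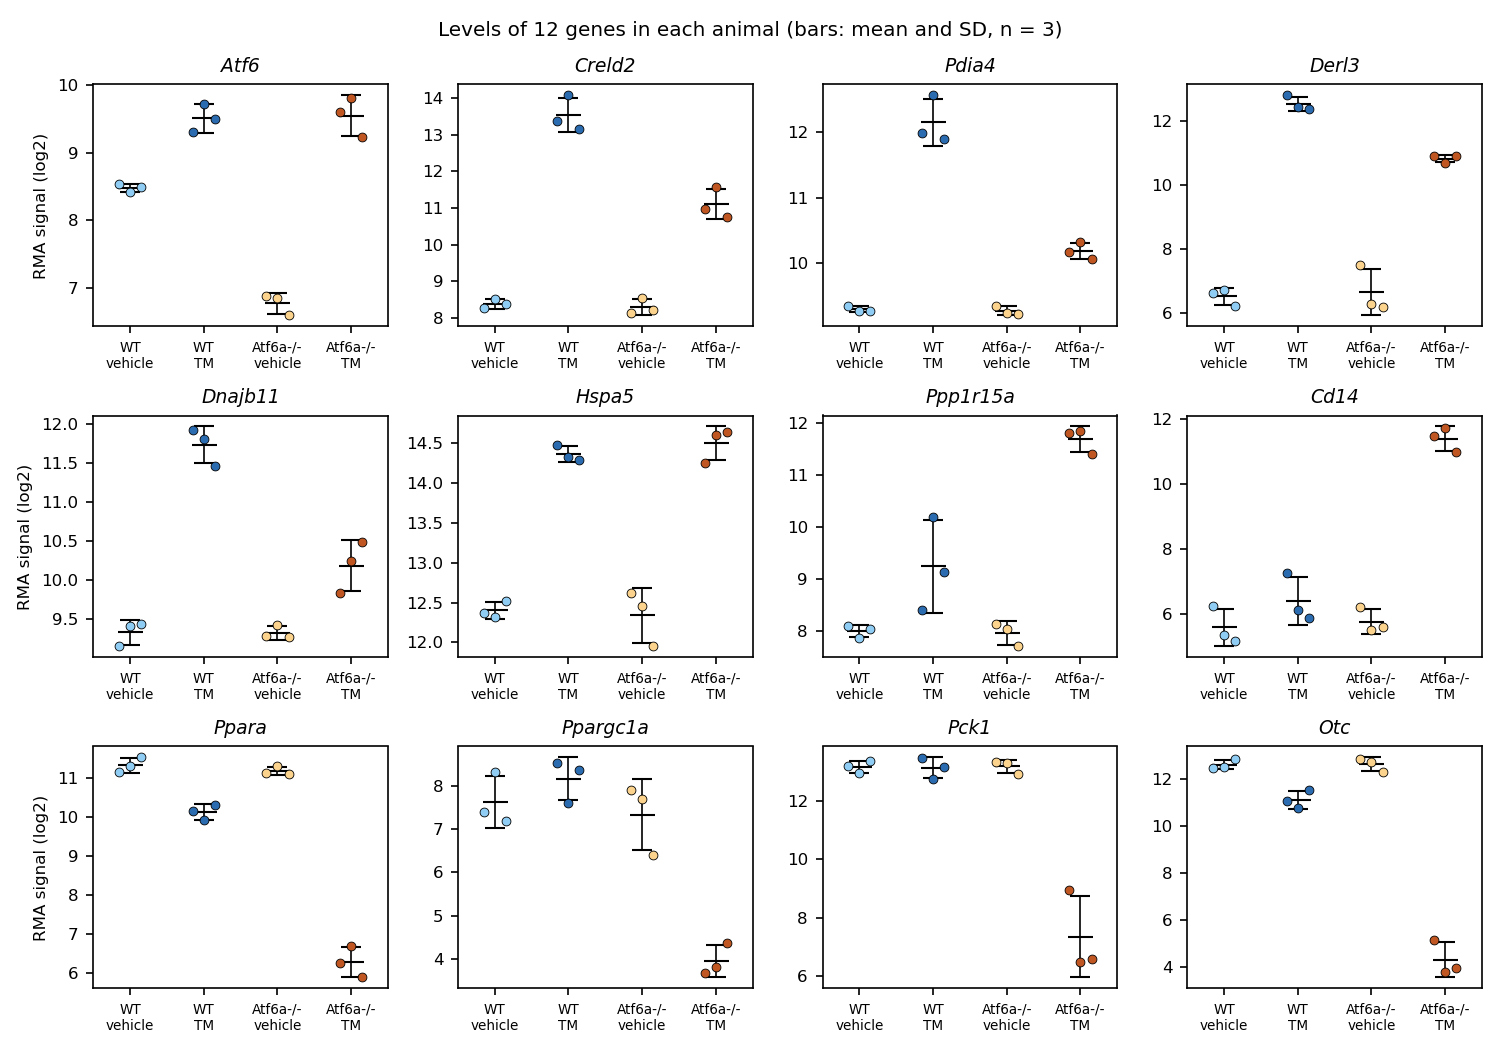
Log2 signal of 12 genes in each animal of the 4 groups, with the group mean and SD (n = 3). Creld2, Pdia4, Derl3 and Dnajb11 are highest in wild-type TM livers, Hspa5 is alike in both TM groups, Ppp1r15a and Cd14 are highest in Atf6a-/- TM livers, and Ppara, Ppargc1a, Pck1 and Otc are lowest there.

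Some other genes of the secretory pathway among the 42 rose in wild-type livers and were not raised in Atf6a-/- livers, while others rose less there. The genes given here were chosen after their values were seen. Creld1, which is related to Creld2, lay at 9.21, 9.13 and 9.21, at 10.66, 10.10 and 10.27, at 9.15, 9.19 and 9.23, and at 8.77, 9.10 and 9.0, with an interaction of -1.39 ± 0.19 (adjusted p = 0.000727). Nucb1, a calcium-binding protein of the Golgi, lay at 10.58, 10.39 and 10.49, at 11.44, 11.32 and 11.21, at 10.48, 10.48 and 10.34, and at 9.87, 10.05 and 10.27, with an interaction of -1.21 ± 0.16 (adjusted p = 0.000649). For both genes every Atf6a-/- TM liver lay below every other liver. Cnpy3, a chaperone of Toll-like receptors, lay at 7.35, 7.26 and 7.21, at 8.35, 7.84 and 8.22, at 7.54, 7.38 and 7.44, and at 6.61, 6.81 and 6.76. It rose 1.81-fold in wild-type livers and fell 1.66-fold in Atf6a-/- livers (interaction -1.59 ± 0.18, adjusted p = 0.000203). Erp44, which retains proteins in the early secretory pathway through thiols, had responses of 0.78 and -0.48 (interaction -1.26 ± 0.24, adjusted p = 0.00528), and Yif1b, a protein of ER-Golgi transport, 0.94 and -0.18 (interaction -1.12 ± 0.18, adjusted p = 0.00193). Smaller differences were measured for Pdia3 and Ero1b, which form disulfide bonds, and for Rpn2, a subunit of oligosaccharyl transferase. Pdia3 rose 3.27-fold and 1.77-fold, Ero1b 4.55-fold and 2.36-fold, and Rpn2 2.09-fold in wild-type livers alone. The calls of Pdia3 and Rpn2 were lost under the spike-in shift, with adjusted p of 0.0752 and 0.0545 at the top of ranges from 0.00021 and 0.0018 over the alternatives, and that of Ero1b without moderation, with 0.0562 at the top of a range from 0.0014. The interactions of Pdia3, Rpn2 and Ero1b, -0.89, -0.79 and -0.95, also lay short of a 2-fold limit.

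**Figure D3:**
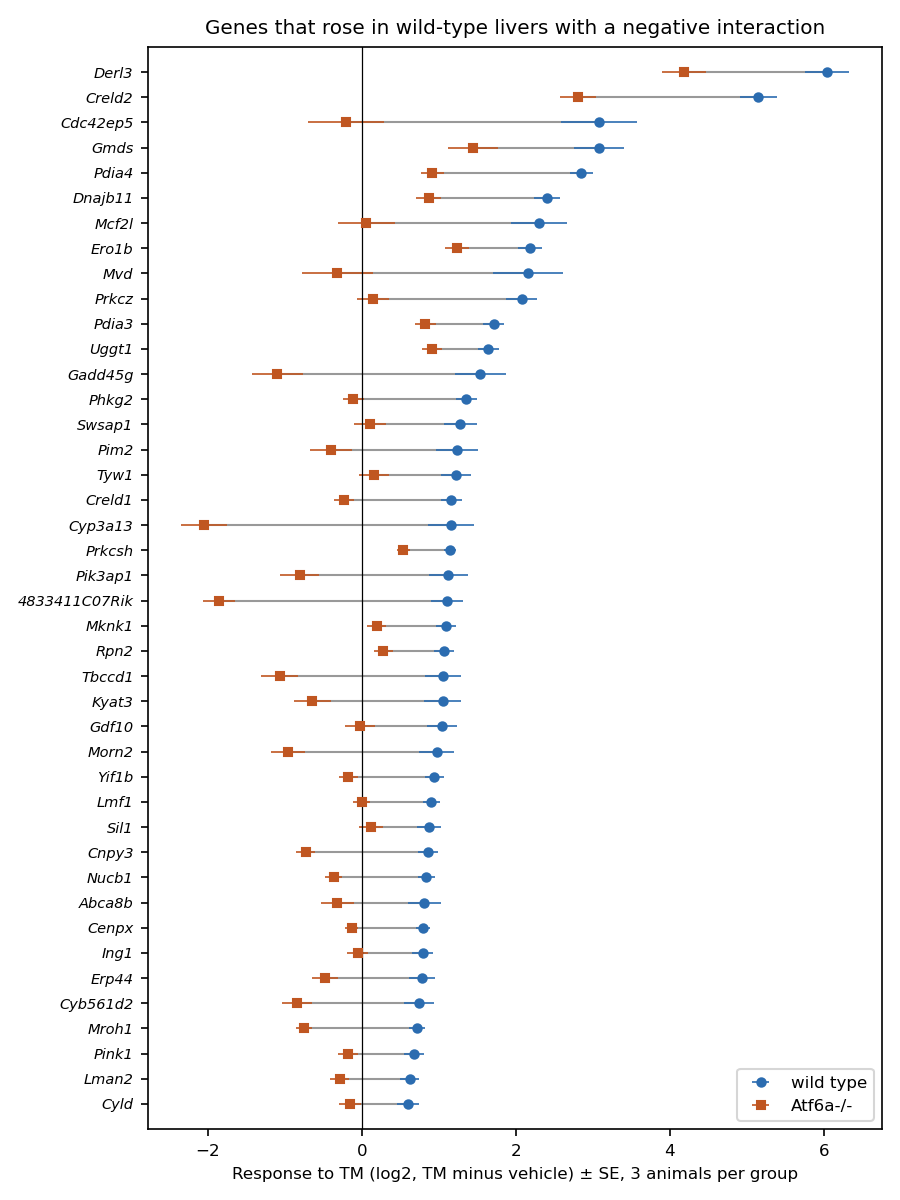
TM responses of the 42 genes that rose in wild-type livers and had a called negative interaction, sorted by the wild-type response, as log2 differences ± SE for each genotype. Derl3, Creld2 and Cdc42ep5 have the largest wild-type responses, and the Atf6a-/- responses of most genes scatter about 0.

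Promoter sequence was read from RefSeq on mouse build GRCm38.p6, 250 bases before to 50 bases after each start site, for 14452 of the 18193 genes and 39 of the 42. The ER stress response element (ERSE) is a CCAAT box followed, after any 9 bases, by CCACG, where NF-Y binds the former and ATF6 the latter, and was searched on both strands. It occurred in 39 of 32851 promoters (0.119%). In the set of 42 it was found for Creld2, Derl3 and Ero1b, 3 of 39 genes (7.69%), and in 8 of 490 other genes that rose in wild-type livers (1.63%). The shorter ERSE-II is ATTGG followed after any 1 base by CCACG and was present in 12 promoters (0.0365%). In the set it was found for Nucb1 and Dnajb11, 2 of 39 genes (5.13%), and in 1 of 490 other genes that rose (0.204%). Of all genes called in the interaction, 4 lower and 2 higher held it. ERSE and ERSE-II contain the CCAAT box, which 12289 promoters (37.4%) hold. Another UPR element, TGACGTGG, was found in 1 of 39 genes of the set (2.56%) and 18 of 490 other genes that rose (3.67%). A match is a description of the letters and not a site of binding. The windows below show the motifs of genes with a lower interaction beside that of Hspa5, whose interaction was not called, with both boxes in capitals, on the gene's strand, and with 20 bases on either side.
Creld2, chr15:88819500-88819558, + strand, -146 to -88 from the start site: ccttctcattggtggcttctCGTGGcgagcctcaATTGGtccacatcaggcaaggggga
Derl3, chr10:75893222-75893280, + strand, -176 to -118: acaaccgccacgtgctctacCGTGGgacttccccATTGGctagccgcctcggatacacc
Ero1b, chr13:12565662-12565720, + strand, -221 to -163: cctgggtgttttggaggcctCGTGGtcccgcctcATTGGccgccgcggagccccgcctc
Nucb1 (ERSE-II), chr7:45510419-45510469, - strand, -61 to -11: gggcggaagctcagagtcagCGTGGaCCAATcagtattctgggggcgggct
Hspa5, chr2:34772005-34772063, + strand, -85 to -27: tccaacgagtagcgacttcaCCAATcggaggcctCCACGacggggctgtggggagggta

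In Creld2, Derl3 and Ero1b the ERSE ran opposite to the gene, and in Hspa5 along it. Hsp90b1, whose interaction was not called either, held an ERSE in each direction. In Dnajc3, not called by its brightest probe set, it ran along the gene. Of the 20 measured genes that hold the ERSE, 11 rose in wild-type and 11 in Atf6a-/- livers. The interaction of 16 of the 20, and of 9 of the 11 that rose in wild-type livers, was below 0. The median of the 20 was -0.28, beside 0.01 for all genes and 0.47 for all genes that rose in wild-type livers. Some of the 16 lay within 1 SE of 0, such as Tdrd9 at -0.03 ± 0.18 and Acnat2 at -0.09 ± 1.13. Of the 20, 3 were called lower and 1 higher. The HNF4A motif CAAAGTCCA, searched in the same way and found in 156 promoters (0.475%), was present in 16 of 981 genes called lower (1.63%), in 4 of 1134 called higher (0.353%) and in 85 of 14452 measured genes (0.588%).

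Most ER chaperones still rose in Atf6a-/- livers, while single UPR genes varied. Hspa5, which encodes the chaperone BiP, lay at 12.37, 12.32 and 12.52, at 14.47, 14.32 and 14.28, at 12.62, 12.45 and 11.95, and at 14.25, 14.60 and 14.63. The TM groups overlapped, with rises of 3.87-fold and 4.45-fold and an interaction of 0.20 ± 0.23 (adjusted p = 0.716), which turned to -0.24 under the Btf3 and Ppia shift. Hsp90b1, the ER paralogue of HSP90, rose 2.72-fold and 2.03-fold (interaction -0.42 ± 0.23, adjusted p = 0.332). Dnajc3, a cochaperone that inhibits PERK, rose 5.53-fold and 4.49-fold by its brightest probe set (interaction -0.30 ± 0.27, adjusted p = 0.61), whereas its other 4 probe sets were all called lower, at -0.80 to -1.20. Xbp1 (-0.39 ± 0.27, adjusted p = 0.493) and Atf6b, the paralogue of ATF6a (0.12 ± 0.25, adjusted p = 0.866, and -0.32 under the Btf3 and Ppia shift), were not called.

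Counts by list are to be read beside the shares of all genes, 7.56% called higher and 6.69% lower. By list, 3 of the 5 genes that the study names as ATF6a-dependent were called lower and none higher, with median responses of 2.47 in wild-type and 1.02 in Atf6a-/- livers. The median response of these genes was 2.59, 2.87 and 2.21 in the wild-type and 0.90, 1.12 and 1.16 in the Atf6a-/- animals. The list was chosen by the study and is not independent evidence of its direction. Of 17 ER chaperones and cofactors 3 were called lower and 1 higher, with a median interaction of -0.29, and 14 rose in wild-type and 12 in Atf6a-/- livers. The count of 4 called members was 2 without animal 2 or 3 of the Atf6a-/- TM group, animal 2 or 3 of the Atf6a-/- vehicle group, wild-type TM animal 3 or wild-type vehicle animal 3. Of 16 disulfide isomerases and oxidases 4 were lower and 2 higher (median -0.29). Ero1a, an oxidase that recharges the isomerases, was higher, with rises of 0.69 and 1.89 and an interaction of 1.20 ± 0.19 (adjusted p = 0.00202), in the direction opposite to its paralogue Ero1b. Of 20 genes of ER-associated degradation 3 were higher and 2 lower (median 0.07). Ufd1, which works with p97 to extract substrates, was higher by 1.39 ± 0.25 (adjusted p = 0.00442). The count for that list fell from 5 to 3 without Atf6a-/- TM animal 2, animal 1 or 2 of the Atf6a-/- vehicle group or animal 2 or 3 of the wild-type vehicle group.

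Genes of entry into the ER rose in both genotypes. Of 23 genes of the translocon, signal peptidase and oligosaccharyl transferase 22 rose in wild-type and 21 in Atf6a-/- livers, while 3 were called higher and 1 lower in the interaction (median 0.36, or -0.086 under the Btf3 and Ppia shift). Ssr2, a subunit of the translocon-associated complex, rose 1.15 and 2.26 on the log2 scale (interaction 1.11 ± 0.15, adjusted p = 0.000581). Of 28 genes of N-glycan synthesis and trimming 9 were higher and 3 lower (median 0.34, or -0.10 under that shift). Alg1, an early mannosyltransferase of the pathway that TM blocks, was lower, with responses of 0.37 and -1.02 and an interaction of -1.40 ± 0.17 (adjusted p = 0.00031). Of 36 genes of COPII, COPI and ER-Golgi transport 6 were higher (16.7%) and 2 lower (5.56%, beside 6.69% of all genes), with a median of 0.38, or -0.061 under that shift. Among those higher were Sec13, a coat protein of COPII vesicles, at 1.25 ± 0.23 (adjusted p = 0.00483) and Sec22b, a SNARE, at 1.32 ± 0.27 (adjusted p = 0.00885). The translocon count was 7 without wild-type TM animal 2 and 2 without wild-type TM animal 1 or 3, wild-type vehicle animal 2 or 3, Atf6a-/- TM animal 2 or 3 or Atf6a-/- vehicle animal 3. The N-glycan count was 5 without Atf6a-/- TM animal 1, 6 without wild-type TM animal 3 or wild-type vehicle animal 2, and 7 without Atf6a-/- vehicle animal 2 or 3. The transport count was 3 without wild-type TM animal 3, 4 without Atf6a-/- TM animal 2 or 3 or wild-type vehicle animal 3, and 5 without Atf6a-/- vehicle animal 2 or 3, wild-type TM animal 1 or wild-type vehicle animal 2.

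Atf4 and Ppp1r15a of the PERK branch rose further in Atf6a-/- livers. Atf4, the factor translated when eIF2a is phosphorylated, lay at 10.60, 10.15 and 10.33, at 10.67, 11.72 and 10.87, at 10.42, 10.29 and 9.93, and at 12.42, 12.41 and 12.49. Its interaction was 1.5 ± 0.33 (adjusted p = 0.0121, 0.0575 without moderation, and 0.000193 to 0.0575 over the alternatives). The dimmer Atf4 probe sets were not called, at 1.53 (adjusted p = 0.0524) and 0.21 (adjusted p = 0.543). Ppp1r15a, which encodes GADD34, the subunit that directs eIF2a dephosphorylation, lay at 8.09, 7.87 and 8.04, at 8.39, 10.19 and 9.14, at 8.13, 8.04 and 7.70, and at 11.81, 11.85 and 11.41. It rose 2.36-fold in wild-type and 13.3-fold in Atf6a-/- livers (interaction 2.49 ± 0.47, adjusted p = 0.00551). Ddit3, which encodes CHOP, lay at 7.03, 6.91 and 6.89, at 9.81, 12.87 and 10.89, at 6.41, 6.46 and 6.49, and at 12.52, 13.04 and 12.94. Wild-type TM animal 2 reached the Atf6a-/- range for Ddit3 and stood nearest to it for Atf4 and Ppp1r15a. The Ddit3 interaction of 2.14 ± 0.76 was not called (adjusted p = 0.108) and was called without that animal or with array weights, with 0.000139 to 0.369 over the alternatives. Of 16 sensors and bZIP factors of the ER stress response 3 were called higher (Atf4, Atf6 and Nfya) and 1 lower (Creb3l3), with 7 called without wild-type TM animal 2. Of 23 PERK, ATF4 and CHOP targets 5 were called higher and 3 lower (median 0.23). The count of 8 was 3 without wild-type vehicle animal 2, 4 without wild-type TM animal 3 or Atf6a-/- vehicle animal 1 or 2, and 5 without wild-type vehicle animal 1 or 3. Slc3a2, the shared chain of amino acid exchangers and an ATF4 target, rose 3.17-fold and 9.73-fold (interaction 1.62 ± 0.33, adjusted p = 0.00799).

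Many genes of ribosome assembly and tRNA charging rose in Atf6a-/- livers. Of 25 ribosome biogenesis genes 4 rose in wild-type and 22 in Atf6a-/- livers, while 15 were called higher and none lower, with a median interaction of 1.27 beside 0.01 for all genes. Nip7, a factor of large-subunit assembly, lay at 7.36, 7.45 and 7.41, at 7.65, 8.44 and 7.65, at 7.43, 7.30 and 6.86, and at 9.48, 9.64 and 10.09, with an interaction of 2.03 ± 0.32 (adjusted p = 0.00177). Of 19 aminoacyl-tRNA synthetases, many of them ATF4 targets, 6 rose in wild-type and 17 in Atf6a-/- livers, while 8 were called higher (median 0.99). Mars1, the methionyl-tRNA synthetase, lay at 8.79, 9.21 and 9.28, at 8.79, 8.72 and 8.54, at 9.23, 9.20 and 8.96, and at 10.23, 10.47 and 10.61. It was not called in wild-type livers and rose 2.48-fold in Atf6a-/- livers (interaction 1.72 ± 0.21, adjusted p = 0.000341). Of 25 translation factors 6 were higher (median 0.62), including Eif2b3, a subunit of the exchange factor that phosphorylated eIF2a inhibits, at 1.44 ± 0.24 (adjusted p = 0.00239). Of 32 ribosomal proteins 3 were higher, 9.38% and so close to the 7.56% of all genes (median 0.38, or -0.061 under the Btf3 and Ppia shift). Without wild-type TM animal 2 the counts were 16 for synthetases and 12 for translation factors. The translation factor count was 3 without animal 2 or 3 of the Atf6a-/- TM group, wild-type TM animal 3, or animal 3 of either vehicle group. The ribosomal protein count was 1 without Atf6a-/- TM animal 3, Atf6a-/- vehicle animal 2 or 3, wild-type TM animal 1 or 3 or wild-type vehicle animal 3. Under the Btf3 and Ppia shift 9 ribosome biogenesis genes and 2 translation factors were called, and under the spike-in shift 10 translation factors.

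Proteasome subunits differed in the direction of their wild-type response. Of 31 subunits 8 fell and 1 rose in wild-type livers, while 5 rose in Atf6a-/- livers, and 9 were called higher and none lower (median interaction 0.56, wild-type response -0.45, Atf6a-/- response 0.19). Psmc2, an ATPase of the regulatory particle, lay at 10.82, 11.01 and 10.96, at 10.28, 11.01 and 10.12, at 10.97, 10.88 and 10.67, and at 11.63, 11.92 and 11.91 (interaction 1.44 ± 0.27, adjusted p = 0.00556). Wild-type TM animals 1 and 3 lay below both vehicle groups and every Atf6a-/- TM animal lay above them. The count of 9 was 17 without wild-type TM animal 2, 5 without wild-type TM animal 3 and 2 under the Btf3 and Ppia shift. Of 20 heat shock proteins and chaperonin subunits of the cytosol 6 were higher (median 0.58), with 10 called without wild-type TM animal 2 and 3 under the Btf3 and Ppia shift. Of 17 genes of amino acid synthesis and transport 3 were higher and 1 lower (median 0.46). That count of 4 was 8 without wild-type TM animal 2 and 2 without any of the other animals except Atf6a-/- TM animal 2, Atf6a-/- vehicle animal 3 and wild-type vehicle animal 1.

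Many transcription factors that maintain the hepatocyte programme were lower. Of 25 liver transcription factors and cofactors 14 were called lower and none higher (median interaction -0.78), and 5 fell in wild-type and 17 in Atf6a-/- livers. The count was 9 under the spike-in shift. Ppara, the nuclear receptor of fatty acid oxidation, lay at 11.14, 11.31 and 11.52, at 10.14, 9.92 and 10.31, at 11.14, 11.30 and 11.10, and at 6.24, 6.68 and 5.90. It fell 2.30-fold in wild-type and 30.0-fold in Atf6a-/- livers (interaction -3.70 ± 0.25, adjusted p = 7.81e-06). Ppargc1a, its coactivator in fasting, lay at 7.39, 8.32 and 7.18, at 8.52, 7.60 and 8.36, at 7.90, 7.70 and 6.40, and at 3.66, 3.81 and 4.37. The last group was dimmer than the highest array median (4.71), so its interaction of -3.92 ± 0.58 (adjusted p = 0.00122) is read as a bound and no fold is given. Ppargc1b, the related coactivator, lay at 8.65, 8.26 and 8.65, at 8.81, 7.68 and 8.52, at 8.82, 8.76 and 8.54, and at 6.05, 6.03 and 5.87 (interaction -2.53 ± 0.33, adjusted p = 0.000545). Cebpa, a factor of hepatocyte differentiation, lay at 12.04, 11.81 and 11.91, at 10.73, 10.61 and 10.63, at 12.06, 11.76 and 11.75, and at 7.81, 9.07 and 8.43 (interaction -2.16 ± 0.33, adjusted p = 0.00161). The 4 genes share a pattern in which no Atf6a-/- TM liver reached the range of any other group. On the linear scale, which weighs the brightest arrays most, the calls of Ppara, Ppargc1a and Cebpa were lost, with adjusted p of 0.0894, 0.146 and 0.0973 at the top of ranges that began at 2.78e-07, 1.39e-05 and 1.98e-05. Hnf4a, another master factor of hepatocytes, fell 1.64-fold and 2.27-fold and was not called in the interaction (-0.47 ± 0.23, adjusted p = 0.261). Dbp, a circadian output factor, was lower by -4.47 ± 0.44 (adjusted p = 9.74e-05), and Rora, a nuclear receptor of the clock, was higher by 1.79 ± 0.17 (adjusted p = 7.52e-05). Of 18 circadian genes 5 were lower and 1 higher (median -0.12).

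Many genes of fatty acid oxidation and lipoproteins fell more in Atf6a-/- livers. Of 27 genes of fatty acid oxidation and ketogenesis 14 were called lower and none higher (median interaction -0.87), with 10 falling in wild-type and 23 in Atf6a-/- livers, while 22 were called under the Btf3 and Ppia shift. Cpt1a, which admits long-chain fatty acids to mitochondria, lay at 11.80, 11.40 and 11.69, at 11.79, 11.29 and 11.50, at 11.41, 11.55 and 11.33, and at 9.29, 9.37 and 9.54. Its wild-type groups overlapped and it fell 4.08-fold in Atf6a-/- livers (interaction -1.92 ± 0.20, adjusted p = 0.000154). Of 20 apolipoproteins and genes of lipoprotein assembly 15 were lower and none higher (median -1.65), with 4 falling in wild-type and 18 in Atf6a-/- livers. Apoc3, an inhibitor of lipoprotein lipase, lay at 14.50, 14.31 and 14.44, at 13.45, 13.32 and 13.40, at 14.53, 14.30 and 14.08, and at 9.51, 8.58 and 9.56, with falls of 2.04-fold and 33.9-fold (interaction -4.06 ± 0.31, adjusted p = 1.53e-05). Mttp, which loads lipid onto ApoB, was lower by -1.58 ± 0.24 (adjusted p = 0.00151). Apob itself was lower by -1.84 ± 0.32 (adjusted p = 0.0032, with 2.6e-05 to 0.111 over the alternatives, the highest on the linear scale).

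Genes of fatty acid and triglyceride synthesis went both ways, 6 of 24 lower and 2 higher (median -0.49), and 13 were called under the Btf3 and Ppia shift. Dgat2, which makes triglyceride, was lower by -3.26 ± 0.38 (adjusted p = 0.000271). The 2 higher genes coat lipid droplets. Plin2 lay at 13.30, 12.84 and 12.98, at 12.79, 13.72 and 12.56, at 12.66, 12.73 and 12.56, and at 14.21, 14.46 and 14.44 (interaction 1.74 ± 0.34, adjusted p = 0.00641), and every Atf6a-/- TM liver lay above all others. Cidec was higher by 2.69 ± 0.24 (adjusted p = 5.44e-05) which is a bound, since group means in which it was low lay under or close to the array median. The lipogenic regulator Srebf1 fell in both genotypes, by 2.91 and 3.25 on the log2 scale, and its interaction was not called (-0.34 ± 0.27, adjusted p = 0.56), nor was that of Fasn, the fatty acid synthase (-1.87 ± 0.55, adjusted p = 0.052). Fasn was called under 10 alternatives, among them those without wild-type TM animal 1 or 2, with adjusted p of 0.00532 to 0.529 over the alternatives. Of 21 genes of cholesterol synthesis and uptake 6 were lower and none higher (median -0.73), with 12 called under the Btf3 and Ppia shift. Stard4, a sterol carrier, was lower by -2.47 ± 0.26 (adjusted p = 0.00015).

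Other metabolic functions of hepatocytes were lower as well. Of 24 drug-metabolising enzymes 17 were called lower and none higher (median -2.44), with 8 falling in wild-type and 19 in Atf6a-/- livers. Cyp3a25, a cytochrome P450, lay at 13.50, 13.38 and 13.59, at 13.16, 13.07 and 13.24, at 13.82, 13.80 and 13.33, and at 7.85, 6.92 and 7.78, and fell 70.3-fold in Atf6a-/- livers (interaction -5.80 ± 0.31, adjusted p = 1.72e-06). Its relative Cyp3a13 ran the other way in wild-type livers, with a rise of 2.23-fold against a fall of 4.14-fold (interaction -3.21 ± 0.42, adjusted p = 0.000581). Of 31 genes of the urea cycle and amino acid catabolism 19 were lower and none higher (median -1.64), with 5 falling in wild-type and 27 in Atf6a-/- livers. Otc, the ornithine transcarbamylase of the urea cycle, had the most negative estimate of all genes. It lay at 12.46, 12.51 and 12.83, at 11.04, 10.74 and 11.52, at 12.85, 12.70 and 12.28, and at 5.17, 3.79 and 3.97 (interaction -6.80 ± 0.45, adjusted p = 6.41e-06), which is a bound with no fold and no firm rank, because the last group lay under the array median. Its call was lost on the linear scale, where the adjusted p of 0.207 was the highest of a range from 5.04e-08. Of 20 genes of bile acid synthesis and transport 11 were lower and none higher (median -1.42), including the uptake carrier Slc10a1 at -6.52 and the sterol hydroxylase Cyp8b1 at -6.12, both called except on the linear scale. Of 22 genes of glucose and glycogen metabolism 8 were lower and 1 higher (median -0.67). Pck1, the rate-limiting enzyme of gluconeogenesis, lay at 13.22, 12.96 and 13.37, at 13.49, 12.78 and 13.17, at 13.36, 13.31 and 12.95, and at 8.97, 6.48 and 6.59. It was not called in wild-type livers and fell 58.0-fold in Atf6a-/- livers (interaction -5.82 ± 0.71, adjusted p = 0.000369). Of 36 genes of oxidative phosphorylation 5 were lower and none higher (median -0.23), and 18 were called under the Btf3 and Ppia shift.

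**Figure D4:**
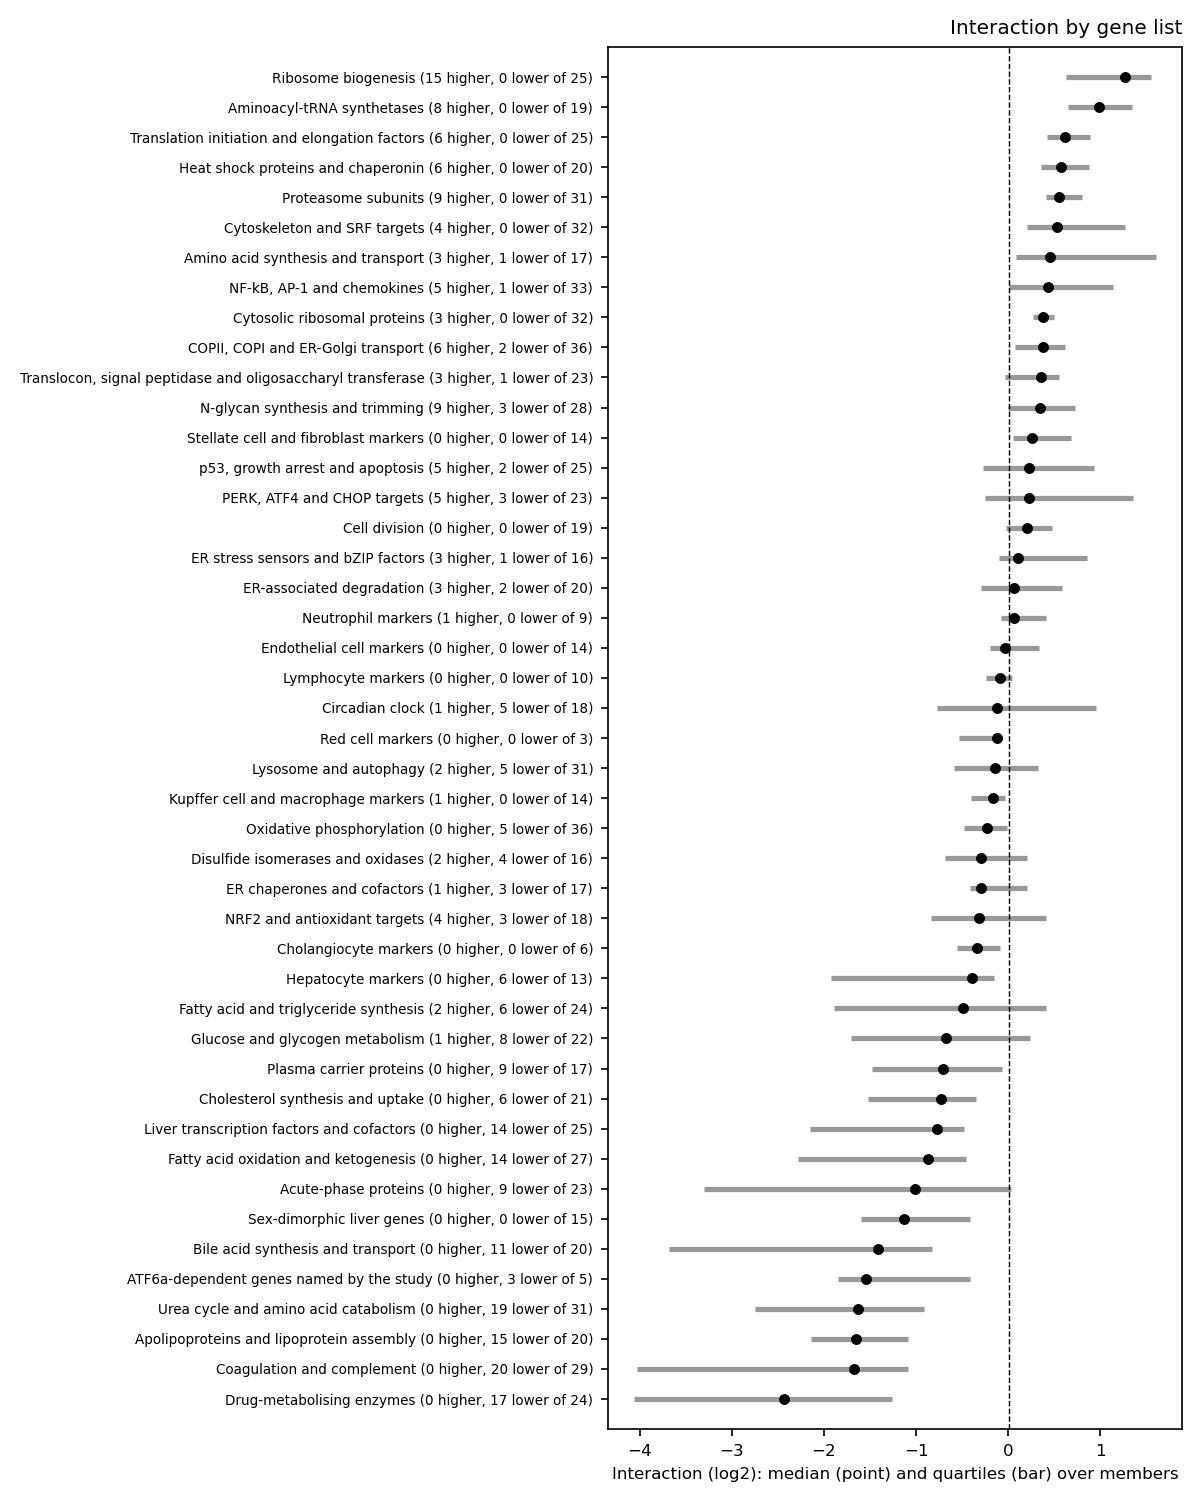
Interaction of the measured members of each of 45 gene lists, with the median as a point and the quartiles as a bar (log2 scale), beside the median of all genes, 0.01, as a dashed line. Drug-metabolising enzymes, coagulation, apolipoproteins and amino acid catabolism lie furthest below it and ribosome biogenesis and aminoacyl-tRNA synthetases furthest above it, while the medians of translocon, N-glycan, ER-Golgi transport, ribosomal protein, NF-kB, p53, cell division and stellate cell lists fall below 0 under the Btf3 and Ppia shift, those of the lysosome, lymphocyte and red cell lists rise above 0 under the spike-in shift, and that of NRF2 targets is 0.0055 without wild-type TM animal 2.

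Many secreted plasma proteins, which pass through the ER, were lower, though not all of them. Of 29 coagulation and complement genes 20 were called lower and none higher (median -1.67), with 9 falling in wild-type and 25 in Atf6a-/- livers. Klkb1, the plasma prekallikrein, was lower by -5.01 ± 0.30 (adjusted p = 3.3e-06). Of 23 acute-phase proteins 9 were lower and none higher (median -1.01). Hp, the haemoglobin-binding haptoglobin, lay at 13.95, 14.03 and 14.14, at 13.81, 13.51 and 13.58, at 14.34, 14.15 and 14.20, and at 8.60, 8.08 and 9.46 (interaction -5.12 ± 0.36, adjusted p = 9.46e-06). In contrast Apcs, the serum amyloid P component, rose by 2.06 and 1.55 and was not called in the interaction (-0.51 ± 0.37, adjusted p = 0.508). Of 17 plasma carriers 9 were lower and none higher (median -0.70), led by the histidine-rich glycoprotein Hrg at -5.57 ± 0.34 (adjusted p = 4.01e-06). Among the brightest hepatocyte transcripts Alb at -0.39, Ttr at -0.29 and Apoa1 at -0.33 were not called in the interaction. Their vehicle means of wild-type livers, 14.77, 14.55 and 14.53, lay close to the highest value of the table, 14.91, and saturation of these signals was not tested. Apoa2, equally bright at 14.64 in those livers, lay further in the same direction and was called lower, at -1.92. Apoa1 fell in both genotypes, by 1.53 and 1.86. Tat, at 13.10 in wild-type vehicle livers, had an interaction of -0.09 and was not called. Of 13 hepatocyte markers 6 were lower and none higher (median -0.39). Their summed linear signal was 202153 to 222720 in wild-type vehicle, 148323 to 199879 in wild-type TM, 187395 to 229015 in Atf6a-/- vehicle and 90068 to 116242 in Atf6a-/- TM livers, so that the last group lay below the other groups.

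**Figure D5:**
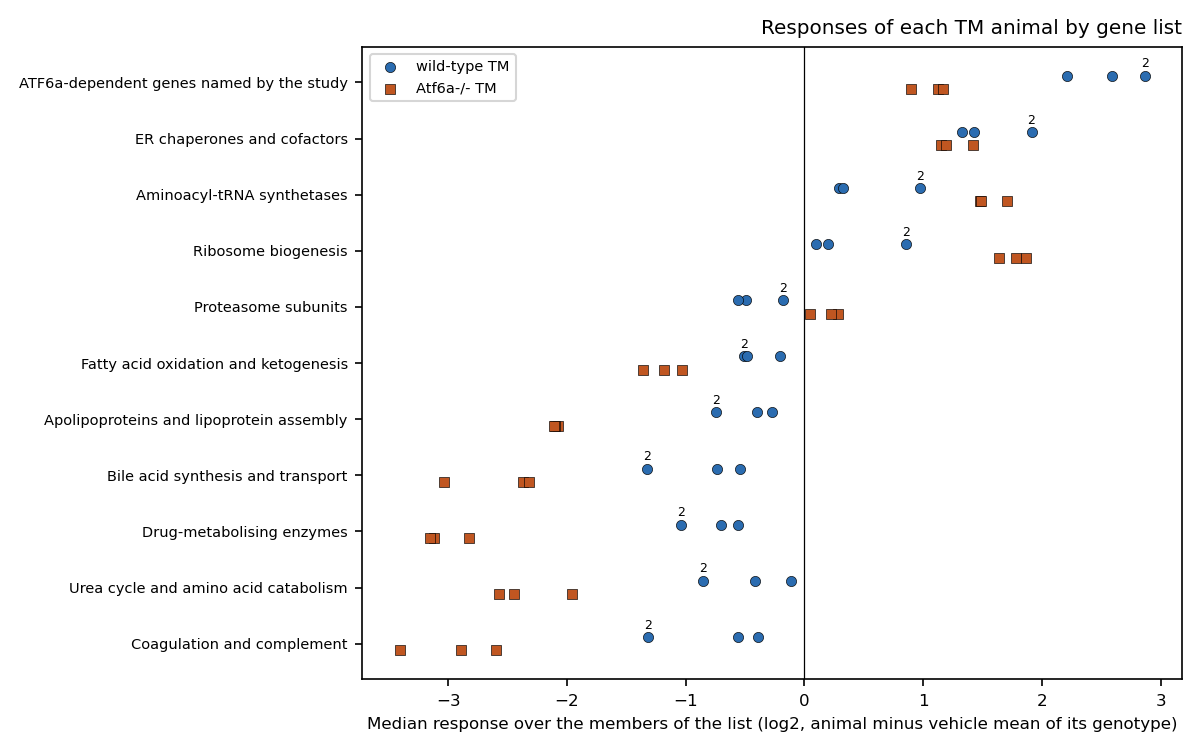
Median response of 11 gene lists in each TM animal, as the log2 level minus the mean of the vehicle animals of its genotype, with wild-type TM animal 2 labelled. For the ATF6a-dependent genes the wild-type animals lie at 2.21 to 2.87 and the Atf6a-/- animals at 0.90 to 1.16, while in the lists of metabolism the Atf6a-/- animals lie lowest.

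Stress, inflammatory and growth-arrest genes went both ways. Of 33 genes of NF-kB, AP-1 and chemokines 5 were higher (15.2%, beside 7.56% of all genes) and 1 lower (median 0.43, or -0.011 under the Btf3 and Ppia shift). Cd14, the coreceptor for lipopolysaccharide, lay at 6.25, 5.35 and 5.16, at 7.25, 6.12 and 5.87, at 6.21, 5.50 and 5.60, and at 11.47, 11.72 and 10.99. The wild-type groups overlapped and Cd14 rose 49.4-fold in Atf6a-/- livers (interaction 4.80 ± 0.53, adjusted p = 0.000192). The list's count of 6 was 12 without wild-type TM animal 2, 2 without wild-type TM animal 3, 3 without Atf6a-/- vehicle animal 2 or wild-type vehicle animal 1, and 3 under the Btf3 and Ppia shift. Of 25 genes of p53, growth arrest and apoptosis 5 were higher (20%) and 2 lower (8.0%, beside 6.69% of all genes) (median 0.23, or -0.22 under that shift). The count of 7 was 3 without Atf6a-/- TM animal 1 or wild-type TM animal 3 and 4 without any 1 of the vehicle animals. Of 18 NRF2 targets 4 were higher and 3 lower (median -0.32, or 0.0055 without wild-type TM animal 2), with Srxn1, which reduces peroxiredoxins, at 3.56 ± 0.54 (adjusted p = 0.00146) and Gpx1, the glutathione peroxidase, at -1.55 ± 0.15 (adjusted p = 8.65e-05). Of 31 lysosome and autophagy genes 5 were lower (16.1%) and 2 higher (6.45%, beside 7.56% of all genes), with a median of -0.15, or 0.025 under the spike-in shift. Lamp1, a lysosomal membrane protein, was at -2.01 ± 0.22 (adjusted p = 0.000191) and Sqstm1, the autophagy receptor p62, at 1.48 ± 0.30 (adjusted p = 0.00828). Under the Btf3 and Ppia shift 11 of that list were called. Of 32 genes of the cytoskeleton and SRF targets 4 were higher (median 0.53), and 10 without wild-type TM animal 2.

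Most markers of other liver cells were not called in the interaction. Of 14 Kupffer cell and macrophage markers Cd68 alone was called (median -0.16), with 2 called without Atf6a-/- TM animal 2 and 3 under the Btf3 and Ppia shift. Cd68, a lysosomal protein of phagocytes, lay at 5.90, 6.04 and 6.28, at 5.56, 7.23 and 6.56, at 6.45, 6.09 and 6.38, and at 9.0, 9.24 and 9.90 (interaction 2.70 ± 0.49, adjusted p = 0.00416). The defining Kupffer markers Clec4f (-0.42) and Vsig4 (-0.79) were not called, and the list's summed signal was 4131 to 5203 in wild-type TM and 4505 to 6088 in Atf6a-/- TM livers, against 7996 to 9516 and 8803 to 10530 after vehicle. Of 9 neutrophil markers S100a8 alone was called (interaction 2.37 ± 0.63, adjusted p = 0.0321, with 0.000995 to 0.231 over the alternatives). S100a8, a calcium-binding protein of myeloid cells, lay at 5.25, 4.84 and 4.90, at 7.85, 6.76 and 7.31, at 5.07, 4.52 and 4.96, and at 10.39, 8.26 and 9.91, so that the TM groups did not overlap. Its call was lost without Atf6a-/- TM animal 1 or 3, Atf6a-/- vehicle animal 2 or 3, wild-type TM animal 3 or any 1 of the wild-type vehicle animals, with estimates of 1.93 to 3.00 over the animals left out. Without Atf6a-/- TM animal 2, 2 of the 9 were called. The summed signal of the list was 292 to 339, 414 to 695, 275 to 302 and 713 to 2692 in the 4 groups in the order above. The granule genes Mpo, Camp and Ltf lay at group means of 3.8 to 4.4, under the array median. Elane (group means of 6.47 to 6.81, interaction 0.06) and Ngp (4.96 to 5.17, interaction -0.34) lay above it and were not called. S100a9, with an interaction of 2.07, was not called either. None of 10 lymphocyte markers (median -0.08, or 0.085 under the spike-in shift), 14 endothelial, 14 stellate, 6 cholangiocyte and 3 red cell markers was called. Leaving out 1 animal gave at most 2 called endothelial markers, without Atf6a-/- TM animal 1 or Atf6a-/- vehicle animal 3. None of 19 cell division genes and of 15 sex-dimorphic liver genes was called, with 1 or 2 of either list without Atf6a-/- vehicle animal 1, wild-type TM animal 2 or wild-type vehicle animal 1. The median interaction of the cell division genes was 0.21. That of the sex-dimorphic genes was -1.14 (quartiles -1.59 and -0.41), with median responses of -0.86 in wild-type and -1.85 in Atf6a-/- livers. A lack of calls in that list is therefore not a lack of difference. The median of stellate markers was below 0 under the Btf3 and Ppia shift (-0.18) and that of red cell markers above 0 under the spike-in shift (0.049). The part of other cell types in the results above was not tested.

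Outside the lists, the highest interaction was that of Acot5, a peroxisomal acyl-CoA thioesterase. It lay at 3.23, 2.94 and 3.24, at 3.19, 3.16 and 3.08, at 3.06, 3.03 and 3.14, and at 8.92, 8.72 and 9.81 (interaction 6.07 ± 0.31, adjusted p = 1.31e-06). The other groups lay under the array median, so this too is a bound. Slc16a6, a monocarboxylate carrier that exports ketone bodies, was higher by 4.13 ± 0.32 (adjusted p = 1.89e-05) and Rras2, a Ras-related GTPase, by 3.66 ± 0.41 (adjusted p = 0.000232). On the other side stood Aldh8a1, an aldehyde dehydrogenase, at -6.06 ± 0.22 (adjusted p = 1.73e-07), and Oaf at -5.97 ± 0.28 (adjusted p = 7.55e-07). For 209 of the 2594 called genes (8.06%) at least 1 group mean lay under the array median.

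Opposite responses were rare. In 15 genes, chosen by their calls, the TM response was called in both genotypes and in opposite directions, 9 rising in wild-type and falling in Atf6a-/- livers, with 6 the reverse. Gadd45g, a stress-induced growth arrest protein, lay at 8.07, 7.28 and 7.53, at 9.58, 8.78 and 9.15, at 7.93, 7.43 and 8.89, and at 6.90, 6.82 and 7.23. It rose 2.91-fold in wild-type livers and fell 2.15-fold in Atf6a-/- livers (interaction -2.64 ± 0.47, adjusted p = 0.00377). Socs2, a suppressor of growth hormone signalling, lay at 8.54, 8.08 and 8.22, at 4.62, 5.69 and 6.70, at 7.55, 8.45 and 7.23, and at 9.04, 9.0 and 9.78. It fell 6.11-fold and rose 2.89-fold (interaction 4.14 ± 0.64, adjusted p = 0.00158), and the TM groups stood on opposite sides of both vehicle groups. Plin3, a coat protein of lipid droplets, lay at 8.05, 8.53 and 8.34, at 7.43, 7.68 and 7.01, at 8.34, 8.33 and 8.12, and at 9.71, 9.86 and 9.34, and so fell 1.91-fold and rose 2.59-fold (interaction 2.31 ± 0.26, adjusted p = 0.000236). Cs, the citrate synthase, fell 1.69-fold and rose 2.10-fold (interaction 1.83 ± 0.26, adjusted p = 0.000991). Avpr1a, the hepatic vasopressin receptor, fell 1.74-fold and rose 2.86-fold (interaction 2.31 ± 0.24, adjusted p = 0.000128). The calls of these 5 genes held under each of 24 alternatives, which did not include a 2-fold limit or the mean of a gene's probe sets. For Socs2 the next brightest probe set was also called, at 4.25 ± 0.49, while its dimmer probe sets, at -0.07 to 0.55, were not.

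In all, 702 genes fell in wild-type livers, of which 272 (38.7%) were lower, 21 (2.99%) higher and 409 neither in the interaction. The 21 had a median response of -0.71 in wild-type and 0.24 in Atf6a-/- livers, while 6 of them rose there. Their count was 50 without wild-type TM animal 2, 33 without wild-type vehicle animal 1 and 14 without wild-type TM animal 3 or wild-type vehicle animal 2. It was 51 with array weights, 10 under either shift, and 7 on the linear scale or without moderation.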

How the data were processed

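The authors deposited 1 table of log2 values made from Affymetrix scans with RMA (background correction, quantile normalization and probe summarisation; affy and limma are named in the submitters' notes, with no versions). It holds 45101 features, of which 64 AFFX controls were left out, and values run from 2.38 to 14.91. The platform table gives 34945 probe sets 1 gene symbol, 932 several and 9160 none. Per probe set, limma 3.58.1 (R 4.3.3; lmFit, contrasts.fit, eBayes) fitted 1 mean per group to all 12 arrays. Two-sided p-values were adjusted by Benjamini and Hochberg separately for each contrast, and a call needs adjusted p under 0.05 and over 1.5-fold. Depth has no counterpart on arrays, and 3 animals per group limit the precision. The 45 gene lists, with 946 of 1049 memberships measured, and the comparison itself were chosen with earlier results of these data known. Members not measured by a single-symbol probe set are not analysed here. Named genes are fixed UPR and metabolic genes, up to 2 called in each direction from each list (or the 2 largest differences), and the 10 largest interactions of either sign whose responses did not overlap between genotypes and whose highest group mean was at least 7. Genes given as examples were mostly those whose call held under every alternative, which was seen first, and genes among the 42 and the 15 were chosen after their values were seen.

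Promoters came from the RefSeq table for GRCm38.p6. Settings changed singly were cyclic loess or quantile normalization of the values, array median centring, shifts by Btf3 and Ppia or by spike-ins, array weights, trend and robust fits, no moderation, a linear scale, dim probe sets left out, Xist as a covariate, a replicate block, other thresholds, the mean of a gene's probe sets, and each animal left out. Replicate numbers were not taken as pairs. The fit was tested on simulated data. Tables and plots were made with pandas 2.3.3, matplotlib 3.10.9 and numpy 2.4.6 in Python 3.11.15.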

Additional observations from a re-analysis of the deposited data

Results flagged for a closer look

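The number of probe sets called in the interaction, 4565, marks a difference between the TM responses of the genotypes that was tested directly. The same holds for 2 named genes whose responses were called in opposite directions in the genotypes: Gadd45g, with an interaction of -2.64, and Socs2, with 4.14.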

How the results depend on the processing

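Of 4565 probe sets called (2532 higher, 2033 lower), 2961 (1475 higher) passed a 2-fold limit and 2696 (1362 higher, 1334 lower) were called without moderation. The share called higher, 55.5%, was 13.3% under the Btf3 and Ppia shift (793 higher, 5152 lower), 66.6% under the spike-in shift and 75.4% on the linear scale (751 lower). Leaving out 1 animal gave 3191 to 6201 probe sets, 1624 to 3656 higher and 1567 to 2545 lower, the lowest without wild-type TM animal 3 and the highest without wild-type TM animal 2. In genes the ranges were 891 to 2014 higher and 937 to 1475 lower. The wild-type response reached 4493 probe sets under the spike-in shift, the Atf6a-/- response 20714 and 17334 under the Btf3 and Ppia and the spike-in shift, and the genotype difference after TM 11198 under the former. After vehicle 0 to 4 probe sets were called with 1 animal left out. The 42 genes that rose in wild-type livers and were lower became 68, 72, 67 and 20 under the Btf3 and Ppia shift, the spike-in shift, array weights and no moderation, and 28 to 73 with 1 animal left out. The 21 that fell and were higher became 10, 10, 51 and 7 under the same settings, 7 on the linear scale, and 14 to 50 with 1 animal left out. A replicate block gave 2672 higher and 2131 lower. Deviations of same-numbered animals from their group means correlated at a median r of 0.089 (-0.18 to 0.37, 8 of 18 pairs above 0.1), against a median of -0.060 for other pairs. Animals 1 of the groups other than wild-type TM, which share a high Xist signal, correlated at 0.37, 0.21 and 0.18. As not every same-numbered pair passed 0.1 and no label ties the numbers to a litter or day, they were not taken as pairs. The cause of these changes was not tested.

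No gene whose estimate changed sign was called. Under the Btf3 and Ppia shift they were Atf6b (-0.32), Hspa5 (-0.24), Elk4 (-0.061), Nr2f1 (-0.34) and the list medians of the translocon (-0.086), N-glycan (-0.10), COPII and COPI (-0.061), ribosomal protein (-0.061), NF-kB (-0.011), p53 (-0.22), cell division (-0.23) and stellate cell (-0.18) lists. Under the spike-in shift they were Slc4a1 (0.049) and the lysosome (0.025), lymphocyte (0.085) and red cell (0.049) medians. On the linear scale, in signal units, they were Srebf1 (68.9) and Alas2 (16.4). With 1 animal left out they were Atf6b (-0.036 to 0.27, lowest without Atf6a-/- TM animal 2 and -0.000605 without wild-type TM animal 3), Nr2f1 (-0.058 to 0.24, lowest without wild-type vehicle animal 2) and the NRF2 median (-0.46 to 0.0055, highest without wild-type TM animal 2). Of 113 called genes among the 141 named, 51 kept the call under every alternative and 86 under all but the linear scale, no moderation and the Btf3 and Ppia shift. In 425 of 9010 genes with several probe sets the brightest was not called while another was.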
